A study of Mus musculus with 3 samples.

Results

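The genes described here are 7 genes of red blood cells, namely the embryonic globin genes Hbb-y, Hbb-bh1 and Hba-x, the haem synthesis gene Alas2, the red cell enzyme gene Bpgm, the red cell anion exchanger gene Slc4a1 and the erythroid transcription factor gene Klf1. They were taken as all probe sets whose single gene symbol in the platform annotation is 1 of these names. This gave 15 probe sets for 7 genes, of 34945 probe sets with 1 symbol that stand for 18193 genes in the series. RNA came from dental papillae, the mesenchyme of the tooth germ that forms pulp and dentin, dissected with enzymes from mandibular first molars of ICR mice. The stages were embryonic day 16 (E16), embryonic day 18 (E18) and postnatal day 3 (P3). No treatment or mutation is named in the labels. Each stage is 1 array of RNA pooled from over 20 papillae, so stages could not be tested against each other and every value is that of 1 pooled sample.

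Red cells carry oxygen on haemoglobin, a tetramer of alpha-type and beta-type globin chains that each hold a haem group. In the mouse embryo the first red cells arise in the yolk sac and express embryonic chains, and they are replaced in the blood by definitive red cells from the fetal liver and later the bone marrow, which express adult chains. Red cell precursors and young reticulocytes hold the RNA of haem synthesis and membrane genes and lose it as they mature. Red cells are not made in the dental papilla, which holds blood in its vessels.

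Of the 7 genes, 5 were at or above the detection floor on at least 1 array, and Hbb-bh1 and Hba-x were below it on all 3. Hbb-y and Alas2 were lower at E18 compared with E16 by more than 6-fold, and both stayed low at P3. Bpgm was at least 2-fold lower at P3 compared with E18 and E16 by its brightest probe set, whereas another of its probe sets read nearly the same at P3 and E18. The level used throughout is a signal recovered from the deposited ratios, in the authors' scaled signal units, and the floor was 82.0 of these units, the median of all recovered levels. A value below the floor was set to it before a fold difference was taken, so such a difference is a bound, written "at least". A difference of at least 2-fold counts as a change. Levels of different probe sets are not on a common scale, and only stages are compared.

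The promoters of the genes are shown because Hbb-y and Alas2 were both lower at E18 compared with E16. GATA and CACCC motifs are the binding motifs of the erythroid factors Gata1 and Klf1. RefSeq promoter sequences (build GRCm38.p6, 250 bases before to 50 bases after the gene start) were found for 5 of the 7 genes, Hbb-y, Hba-x, Alas2, Bpgm and Klf1. Those of Hbb-y (chr7:103853158-103853457, minus strand), Alas2 (chrX:150547167-150547466, plus strand) and Bpgm (chr6:34476106-34476405, plus strand), the 3 matched genes that changed by at least 2-fold, are printed 5′ to 3′. Capitals mark GATAA or CACCC on either strand, so that TTATC and GGGTG are the same motifs on the opposite strand.
Hbb-y: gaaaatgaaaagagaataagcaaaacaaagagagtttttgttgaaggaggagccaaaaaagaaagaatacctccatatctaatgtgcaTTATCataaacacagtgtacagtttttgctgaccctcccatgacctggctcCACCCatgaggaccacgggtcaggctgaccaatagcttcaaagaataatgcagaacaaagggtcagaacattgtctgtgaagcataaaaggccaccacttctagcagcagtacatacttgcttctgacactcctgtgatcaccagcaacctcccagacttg
Alas2: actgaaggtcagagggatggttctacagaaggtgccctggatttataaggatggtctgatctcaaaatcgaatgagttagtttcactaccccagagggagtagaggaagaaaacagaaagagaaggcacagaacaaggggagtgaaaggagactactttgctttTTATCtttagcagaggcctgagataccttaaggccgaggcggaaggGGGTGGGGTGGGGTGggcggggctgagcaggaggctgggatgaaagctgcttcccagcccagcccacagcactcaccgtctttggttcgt
Bpgm: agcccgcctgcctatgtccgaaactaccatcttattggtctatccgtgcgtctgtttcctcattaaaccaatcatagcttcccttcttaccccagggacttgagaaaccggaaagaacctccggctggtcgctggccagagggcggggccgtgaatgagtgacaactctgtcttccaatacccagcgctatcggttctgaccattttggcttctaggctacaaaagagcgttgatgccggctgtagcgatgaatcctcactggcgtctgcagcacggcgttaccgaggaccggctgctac

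The Hbb-y promoter held 1 GATAA match, on the opposite strand with its first printed base 162 bases before the start, and 1 CACCC match 111 bases before it. The Alas2 promoter held 1 GATAA match 86 bases before the start and 3 CACCC matches 40, 35 and 30 bases before it, all on the opposite strand. The Bpgm promoter held neither. Hba-x held 1 GATAA and 2 CACCC matches, and Klf1 held 1 and 2. Over all 32851 promoters of this length, 25.4% held GATAA and 57.5% held CACCC on either strand, so a CACCC match is common. The other motifs searched were the longer Klf1-type box CCNCNCCC, which 49.5% of promoters held and which overlaps CACCC, the E-box CAGNTG (51.4%) and TATAA (24.9%). CCNCNCCC matched 4 times in Alas2 and once each in Hba-x and Bpgm, and of the 5 promoters CAGNTG matched only in Klf1 and TATAA only in Hba-x and Alas2. These matches describe letters in the window and are no evidence of binding.

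Hbb-y encodes the embryonic beta-type chain epsilon-y, the main beta-type chain of late yolk sac red cells. Its probe set 1436823_x_at read 674.8 at E16, 101.0 at E18 and 26.0 at P3. Its probe set 1436717_x_at read 626.9 at E16, 89.2 at E18 and 2.9 at P3. Both were highest at E16, just above the floor at E18 and below it at P3. The remaining probe set, 1450621_a_at, was far below the floor on every array, at 3.9, 4.9 and 5.8 in stage order, so the decrease rests on the first pair. By 1436823_x_at, Hbb-y was 6.68-fold lower at E18 compared with E16 (log2 difference -2.74) and at least 8.23-fold lower at P3 compared with E16. By 1436717_x_at it was 7.03-fold and at least 7.64-fold lower. From E18 to P3 the floor leaves decreases of at least 1.23-fold and at least 1.09-fold, which set no upper limit. In this array's naming, _x_at marks probe sets with probes that can also match other transcripts, here possibly other beta-type globins, so RNA of Hbb-y cannot be told apart from that of a close relative by these probe sets alone.

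Hbb-bh1, the embryonic beta-type chain that precedes epsilon-y in yolk sac red cells, gave no measurable level. Its 3 probe sets read between 2.7 and 9.3 at E16, between 3.5 and 7.0 at E18 and between 6.1 and 8.7 at P3. Hba-x, the embryonic alpha-type chain zeta, read 50.6 at E16, 59.7 at E18 and 11.3 at P3 on its single probe set. By their recovered levels both genes are thus below the floor throughout, and no fold after the floor is given. The deposited ratios put Hba-x 4.48-fold lower at P3 compared with E16 and 5.29-fold lower compared with E18. Without a floor, Hba-x was among 5 members lower at P3 against E16. A recovered level may be understated by a whole factor, so the place of Hba-x below the floor is not certain. For scale, the 81 values of bacterial control probe sets outside the hybridisation mix had a median of 7.8 and a highest value of 70.2.

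Alas2 encodes the erythroid form of 5-aminolevulinate synthase, the first and rate-limiting enzyme of haem synthesis in red cell precursors. Its single probe set read 762.9 at E16, 102.0 at E18 and 115.6 at P3. The E16 array stood apart, and the E18 and P3 arrays were close to each other and above the floor. Alas2 was 7.48-fold lower at E18 compared with E16 (log2 -2.90) and 6.60-fold lower at P3 compared with E16 (log2 -2.72). P3 and E18 differed by 1.13-fold. All 3 values exceeded the floor, so these folds are measured and not bounds.

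Slc4a1 encodes band 3, which exchanges chloride and bicarbonate and anchors the red cell cytoskeleton to the membrane. Its probe set 1434502_x_at read 170.1 at E16, 33.8 at E18 and 68.3 at P3, and 1416464_at read 135.9, 39.0 and 73.2 in the same order. Both exceeded the floor at E16 and were below it at E18 and at P3. Its remaining probe set, 1431743_a_at, was below the floor on all arrays with 14.7, 2.1 and 3.2. By 1434502_x_at, Slc4a1 was at least 2.07-fold lower at E18 and at P3 than at E16, and by 1416464_at at least 1.66-fold lower at each, a bound under 2-fold. With the floor doubled the bound by 1434502_x_at shrank to a log2 difference of -0.05, and under quantile normalization it was -0.99, so that Slc4a1 no longer passed 2-fold in either comparison. P3 and E18 could not be compared, since both were below the floor.

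Bpgm encodes bisphosphoglycerate mutase, which makes the 2,3-bisphosphoglycerate that lowers the oxygen affinity of haemoglobin. Its probe set 1415865_s_at read 1120.5 at E16, 849.8 at E18 and 351.7 at P3. By this probe set Bpgm was 1.32-fold lower at E18 compared with E16, 2.42-fold lower at P3 compared with E18 and 3.19-fold lower at P3 compared with E16. Of the other probe sets, 1448119_at read 115.0, 89.2 and 90.7 in stage order, which is 1.27-fold lower at P3 compared with E16. The remaining one, 1415864_at, read 106.8, 90.4 and 36.2 and so fell below the floor at P3, which leaves decreases of at least 1.30-fold compared with E16 and at least 1.10-fold compared with E18 and sets no upper limit. By 1448119_at, Bpgm read nearly the same at P3 and at E18 (1.02-fold). The size of the Bpgm decrease therefore depends on the probe set.

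Klf1 encodes the zinc finger factor that switches on adult beta-globin and many red cell membrane and haem genes. Its single probe set read 74.6 at E16, 105.7 at E18 and 74.1 at P3. Only the E18 value exceeded the floor, giving at least 1.29-fold higher at E18 compared with E16 and at least 1.29-fold lower at P3 compared with E18. No difference between P3 and E16 is given.

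**Figure D1:**
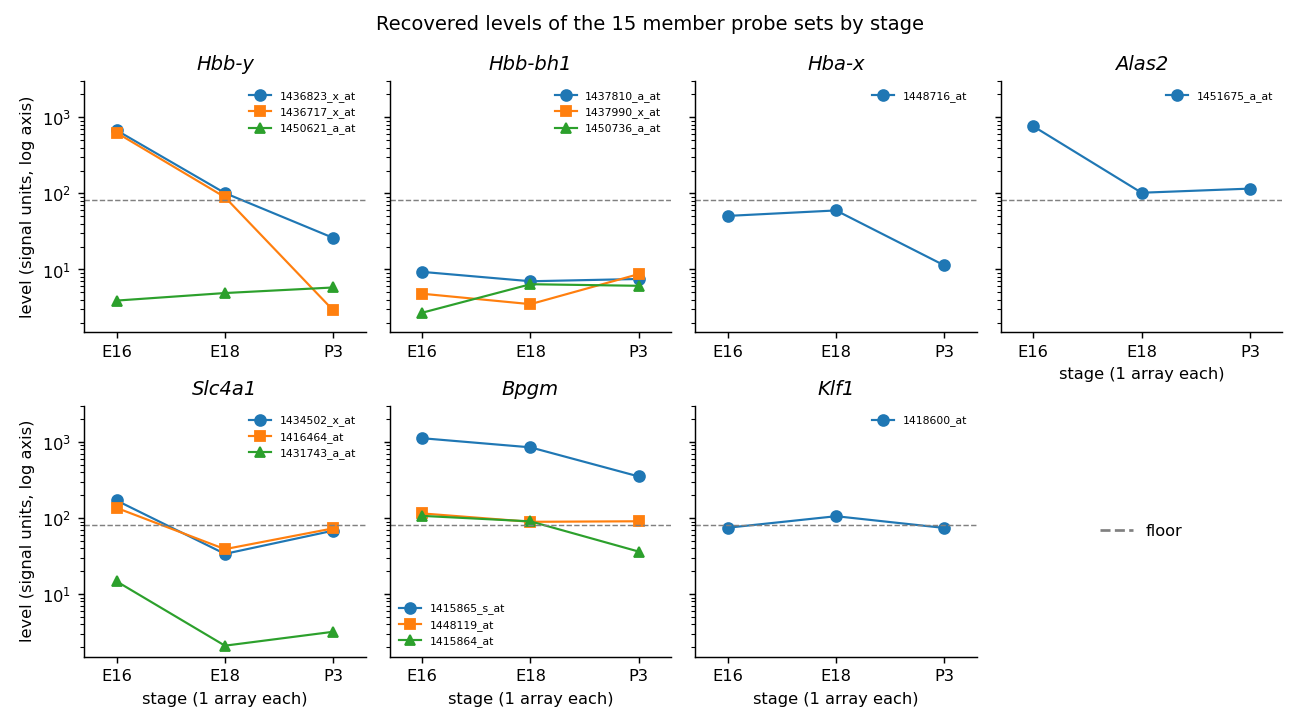
Recovered level in signal units (log axis) of each of the 15 member probe sets at E16, E18 and P3, 1 array a stage, with 1 panel a gene and the floor of 82.0 as a dashed line. The E16 points of Hbb-y (674.8 and 626.9 by 2 probe sets) and of Alas2 (762.9) lie well above their E18 and P3 points, while Hbb-bh1 and Hba-x lie below the floor at all stages.

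By the probe set of each gene with the highest mean level, 5 of the 7 genes were measured at E18 against E16, of which Hbb-y, Alas2 and Slc4a1 were at least 2-fold lower, 0 were higher, Bpgm was under 2-fold and Klf1 had a bound under 2-fold. In all genes measured, 8.13% were at least 2-fold lower at E18 and 8.09% higher. At P3 against E16, all 4 measured members were at least 2-fold lower, against 15.6% of genes lower and 6.57% higher. At P3 against E18, Bpgm alone of 4 measured members passed 2-fold as lower and 0 as higher, against 11.8% and 4.07% of genes, with Hbb-y and Klf1 known there only as bounds. A member below the floor at the later stage enters only through its E16 value and cannot come out higher. This holds for Slc4a1 in both comparisons with E16 and for Hbb-y at P3, so the counts are a description and not support. The medians of the measured members were -1.05 on the log2 scale at E18 against E16 (all genes -0.04), -2.20 at P3 against E16 (all genes -0.17) and -0.33 at P3 against E18 (all genes -0.15). The median at E18 against E16 is the bound of Slc4a1 itself. That at P3 against E18 lies between the bounds of Hbb-y and Klf1, so both medians are set by the floor. In bulk RNA, fewer red cells or precursors in the sample and less of this RNA per cell cannot be told apart.

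Without replicates, how far probe sets of 1 gene differ from each other is what these data hold on measurement error. Over 4047 genes with several probe sets measured, the pooled SD of their log2 differences was 0.61 at E18 against E16. It was 0.61 at P3 against E16 and 0.54 at P3 against E18. By their brightest probe sets, the decreases of Hbb-y and Alas2 at E18 exceeded 2 SD (1.23), as did those of Hbb-y, Alas2 and Bpgm at P3 against E16 (2 SD of 1.22). For Bpgm the brightest probe set gave a log2 difference of -1.67, while 1448119_at gave -0.34 and 1415864_at a bound of -0.38. The decrease of Slc4a1 is known only as a bound set by the floor (log2 -1.05 or lower), so it cannot be placed against 2 SD. Without a floor it was -2.33 at E18 against E16 and -1.32 at P3 against E16, from later values below the floor. The SD itself was taken only over differences that are not bounds. This spread leaves out errors that a whole pool or array shares.

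**Figure D2:**
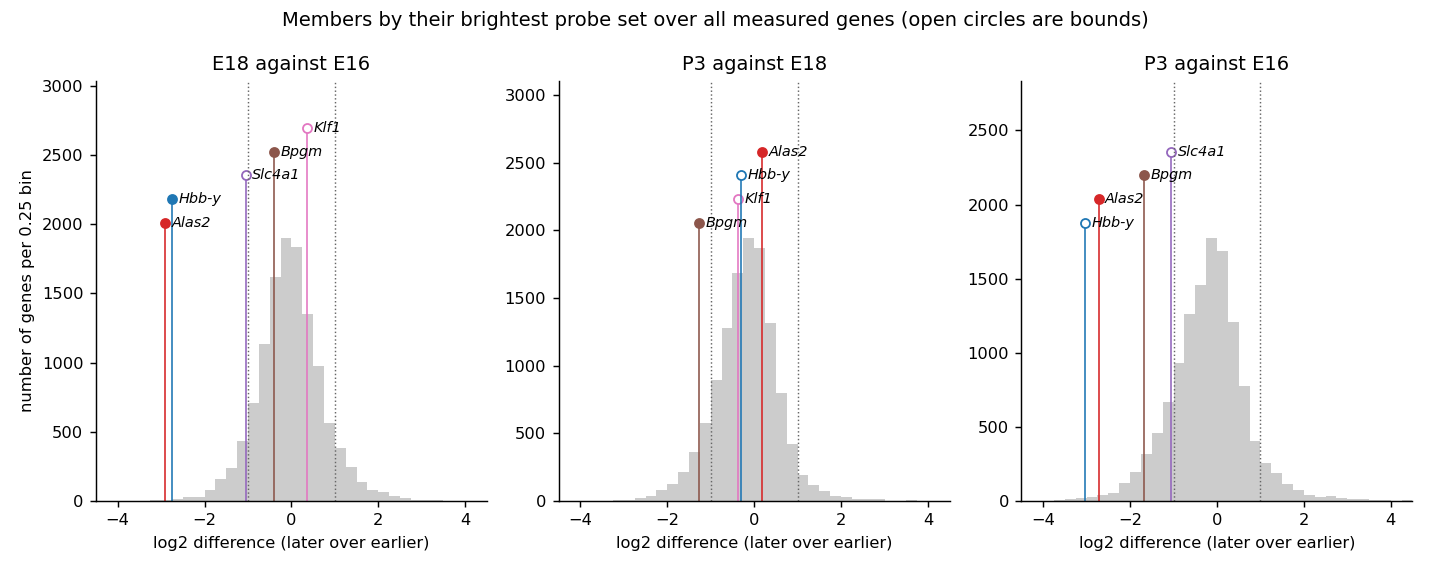
Log2 difference of each measured member (coloured lines, open circles for bounds) over the histogram of all measured genes (grey, number of genes per bin of 0.25) for E18 against E16, P3 against E18 and P3 against E16; dotted lines mark 2-fold. Alas2 (-2.90) and Hbb-y (-2.74) lie in the far left tail at E18 against E16, and at P3 against E18 only Bpgm (-1.27) is past 2-fold.

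Adult globin signal was present at all 3 stages. Several adult globin probe sets match more than 1 near-identical gene and are assigned to none of them here. The probe set annotated to 4 adult beta-globin genes read 2790.9 at E16, 1265.9 at E18 and 1772.5 at P3, which is 2.20-fold lower at E18 compared with E16 and 1.57-fold lower at P3 compared with E16. Of 3 probe sets annotated to both adult alpha-globin genes, 1452757_s_at read 1063.9, 1408.9 and 1964.1 and 1428361_x_at read 830.5, 1004.5 and 1419.2 in stage order, each highest at P3. They were 1.85-fold and 1.71-fold higher at P3 compared with E16, under the 2-fold threshold, and the remaining one, 1417714_x_at, was at least 1.35-fold higher. At P3 these shared probe sets were all above the floor and both Hbb-y probe sets were below it. Of the probe sets with a single adult globin symbol, those of Hbb-b2 read 111.4, 154.8 and 90.1 and 113.5, 134.4 and 63.5. That of Hba-a1 read 86.0, 62.7 and 53.3, and that of Hba-a2 33.0, 119.4 and 55.6. None of these single-gene probe sets passed 2-fold, but several of their differences are bounds. Hba-a2 was at least 1.46-fold higher at E18 compared with E16, and it passed 2-fold there with the floor halved.

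**Figure D3:**
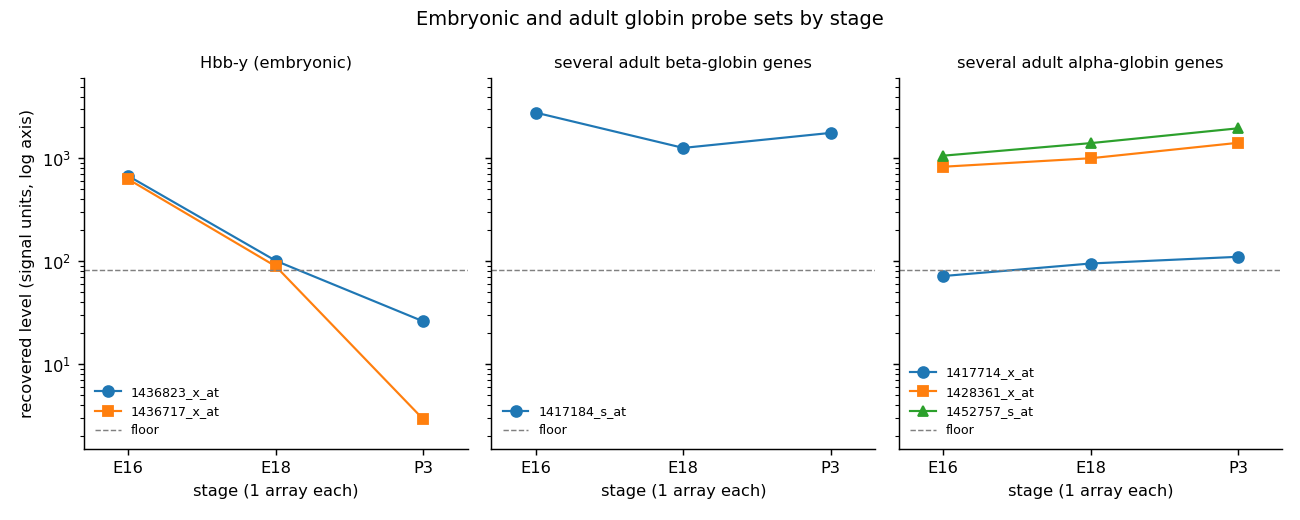
Recovered level (log axis) at E16, E18 and P3 of the 2 Hbb-y probe sets that exceeded the floor (left), the probe set shared by adult beta-globin genes (middle) and the 3 probe sets shared by adult alpha-globin genes (right), 1 array a stage. Both Hbb-y probe sets are below the floor of 82.0 at P3, and each adult probe set is above it there.

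Of the other genes of red cell biology, on 6 lists with 60 genes that have a probe set, 42 were measured in each comparison. At E18 against E16, 5 of them (11.9%) were at least 2-fold lower and 3 (7.14%) higher. At P3 against E16, 4 (9.52%) were lower and 3 higher, and the same counts were found at P3 against E18. The share lower among all genes was 8.13% at E18 against E16, 15.6% at P3 against E16 and 11.8% at P3 against E18. The share higher was 8.09%, 6.57% and 4.07% in the same order. These shares are also the background for the counts of each list and of the markers below. The lists were drawn up with earlier results of these data known.

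Of 8 measured haem synthesis genes other than Alas2, 0 were at least 2-fold lower at E18 compared with E16 and 1 was higher. Cpox, which oxidises coproporphyrinogen, read 100.5 at E16, 584.5 at E18 and 210.6 at P3 and was 5.82-fold higher at E18 compared with E16, but its other measured probe set gave 1.05-fold. Urod, which decarboxylates uroporphyrinogen, read 1814.0, 1837.5 and 738.6 in stage order. Urod was 2.46-fold lower at P3 compared with E16 by this probe set and 2.54-fold by another. The housekeeping synthase Alas1, which makes the same product as Alas2 in other tissues, read 370.9, 408.3 and 255.9, and was 1.45-fold lower at P3 compared with E16 by this probe set. Its other probe set read 98.2, 129.3 and 188.2 and was 1.92-fold higher at P3 compared with E16, so the direction for Alas1 depends on the probe set. At P3 against E16, 1 gene of the list was lower and 1 higher, and at P3 against E18, 2 were lower and 0 higher. The list's median log2 difference was 0.07 at E18 against E16, -0.23 at P3 against E16 and -0.48 at P3 against E18.

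Of 10 measured genes of iron and haem handling, 3 were lower at E18 compared with E16. Tfrc, the transferrin receptor that brings iron into dividing cells and red cell precursors, read 2384.6 at E16, 960.2 at E18 and 547.1 at P3 and was 2.48-fold lower at E18 and 4.36-fold lower at P3 compared with E16. Its 2 other probe sets were below the floor. Slc25a37, the mitochondrial iron importer mitoferrin-1 that serves red cell precursors, read 338.7, 121.2 and 153.9 and was 2.79-fold lower at E18 and 2.20-fold lower at P3 compared with E16. The iron exporter gene Slc40a1 read 832.5, 317.9 and 1107.4. It was 2.62-fold lower at E18 compared with E16 and 3.48-fold higher at P3 compared with E18, while a second probe set gave 1.35-fold and 1.80-fold. Blvrb, which reduces biliverdin, read 68.3, 116.6 and 259.0 and was at least 3.16-fold higher at P3 compared with E16. Fth1, the ferritin heavy chain gene, read 2625.5, 2657.4 and 1514.8, under 2-fold in every comparison. Of 10 measured at E18 against E16, 3 were lower and 0 higher (median -0.25), of 11 at P3 against E16, 2 were lower and 1 higher (median -0.73), and of 11 at P3 against E18, 0 were lower and 2 higher (median -0.20).

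Of erythroid transcription factors and cofactors, 2 of 6 measured were lower at E18 compared with E16 and 0 higher (median -0.29). Myb, a factor of blood progenitors, read 1072.2 at E16, 174.1 at E18 and 169.3 at P3 and was 6.16-fold lower at E18 and 6.33-fold lower at P3 compared with E16. Another of its probe sets gave 4.41-fold and at least 8.46-fold. Lmo2, a cofactor of Tal1 and Gata1 that endothelium also uses, read 441.7, 185.7 and 228.0 and was 2.38-fold lower at E18 compared with E16. Bcl11a, a repressor of embryonic globin genes, read 734.0, 952.9 and 617.1, and Sox6, which acts with it, read 105.4, 115.0 and 119.9. By these probe sets both differed by under 2-fold in all comparisons. Gata1, the factor most specific to red cells and megakaryocytes, read 75.3, 90.0 and 107.8 and was at least 1.31-fold higher at P3 compared with E16. At P3 against E16, Myb alone of 7 measured was lower and 0 were higher (median -0.25), and at P3 against E18, 0 of 7 passed 2-fold (median 0.19).

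Of genes of the red cell membrane and cytoskeleton other than Slc4a1, 0 of 9 measured were lower at E18 against E16 and 2 higher (median 0.26), and at P3 against E16, 0 of 8 were lower and 1 higher (median 0.21). Aqp1, a water channel of red cells and of endothelium, read 134.0 at E16, 294.8 at E18 and 883.9 at P3 and was 6.60-fold higher at P3 compared with E16. Tmod1, which caps actin filaments of the membrane skeleton, read 83.5, 261.3 and 128.1 and was 3.13-fold higher at E18 compared with E16. At P3 against E18, Tmod1 was 2.04-fold lower and Aqp1 3.00-fold higher, 2 of 9 measured (median -0.10). Of other erythroid genes, none of 6 measured passed 2-fold at E18 or at P3 against E16 (medians 0.00 and -0.24). Prdx2, the red cell peroxiredoxin, read 1844.6 at E16, 2618.4 at E18 and 1469.6 at P3. At P3 against E18, 1 of 5 did (median -0.58), the glutaredoxin gene Glrx5, which serves iron-sulphur cluster assembly and read 1652.5, 2099.6 and 839.2. On the list of other globin chains 3 of 9 genes had a probe set of their own, with medians of 0.47 at E18 against E16, -0.19 at P3 against E16 and -0.66 at P3 against E18.

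**Figure D4:**
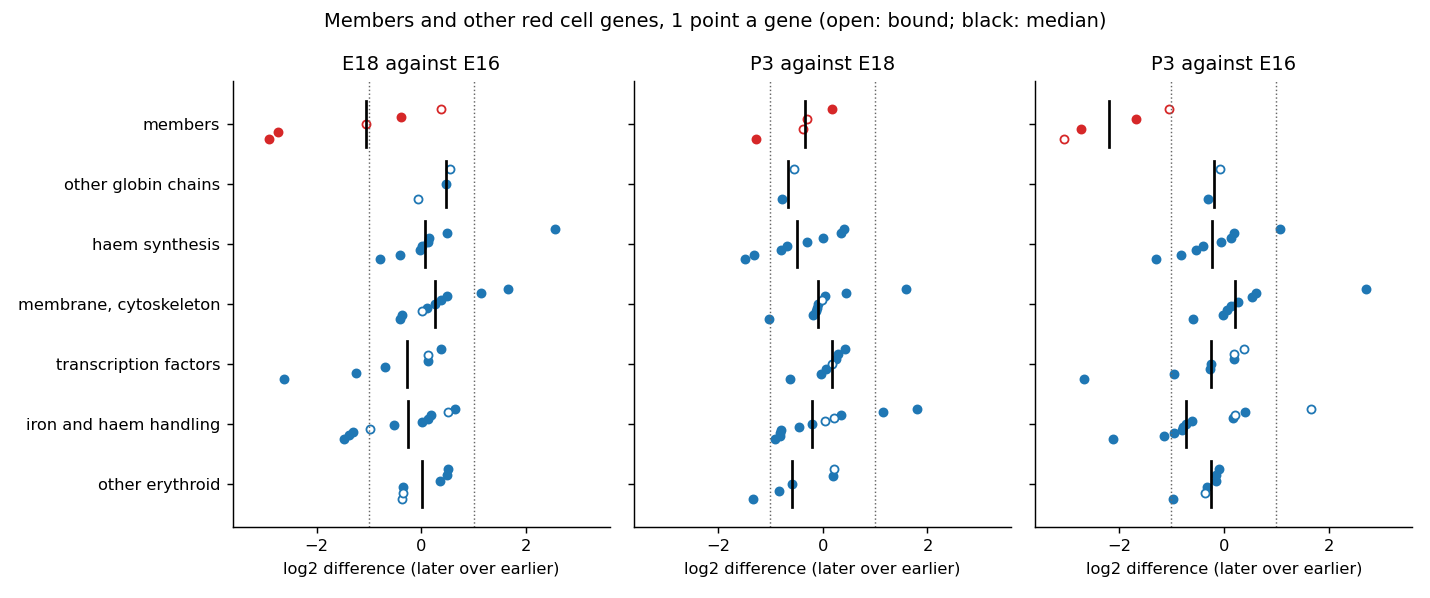
Log2 difference of every measured gene on the member list (red) and on 6 other lists of red cell biology (blue), 1 point a gene, open points for bounds and a black bar for each list's median, for 3 comparisons of stages; dotted lines mark 2-fold. At E18 against E16, Alas2 and Hbb-y lie furthest left among members and Myb (-2.62) furthest left among the others, while the haem synthesis median is 0.07.

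The genes closest to Alas2 in their pattern over the 3 arrays, by Euclidean distance over the log2 differences of both steps among 9861 other genes above the floor on all arrays, were Egr2, AI606473, Myb, Lrrn1 and Vegfd, at distances of 0.25 to 0.41. All 5 were high at E16 and low at both later stages. Among 489 other genes with the floor pattern of Hbb-y, above it at E16 and E18 only, the closest were Crym, Eya1, Ctdp1, Plk1 and E2f1, at distances of 0.22 to 0.88. In this set every P3 value is set to the floor, so the step from E18 to P3 reflects only the E18 level. With 3 arrays many genes share such a pattern, and 3 points define it loosely.

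Markers of the tissue and of other cells moved between the arrays as well. Of 10 markers of dental mesenchyme, 9, 10 and 10 reached the floor at E16, E18 and P3. At E18 against E16, 6 of them were at least 2-fold lower and 1 higher (median -1.54), and at P3 against E16, 6 were lower and 3 higher (median -1.32). The dental epithelium markers summed to 7177.6 at E16, 22105.6 at E18 and 11236.9 at P3. Sums over markers give most weight to the brightest probe sets, and levels of different probe sets are not on a common scale. All 9 measured were higher at E18 compared with E16 (median 1.86), and 7 were lower and 1 higher at P3 compared with E18 (median -2.17). At P3 against E16, 3 were lower and 2, the enamel protein genes Amelx and Ambn, were higher (median -0.44). Of 10 erythroid markers 7 had a probe set, of which 3, 3 and 2 were at or above the floor, and their summed level was 1234.2, 462.3 and 445.7. This list holds the members Alas2, Slc4a1 and Klf1, and the 4 other markers summed to 226.6, 220.8 and 187.7. Of the 7 with a probe set, the membrane genes Epb42 and Rhag were below the floor on all arrays. Hba-a1, Alas2, Slc4a1, Klf1 and Gata1 each reached it on at least 1 array. The endothelial markers summed to 4761.1 at E16, 2337.2 at E18 and 2535.2 at P3, with 5 of 8 measured at least 2-fold lower and 0 higher at E18 compared with E16 (median -1.12). The macrophage markers summed to 2162.2, 4389.4 and 8167.6, with 6 of 10 higher and 0 lower at P3 compared with E16. Signal at the 3' end divided by that at the 5' end depends on how intact and fully copied the RNA is. Because levels of different probe sets are not on a common scale, only the change of this ratio between stages is given. Relative to its E16 value, the ratio was 3.87 at E18 and 2.46 at P3 for actin, and 1.42 and 0.355 for Gapdh. Control RNAs of the hybridisation mix were, by their median, 2.17-fold higher at E18 and 1.04-fold higher at P3 compared with E16. The part of mesenchyme, epithelium, blood vessel content, macrophages, RNA quality or hybridisation in the differences of Hbb-y, Alas2, Slc4a1 and Bpgm was not tested.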

How the data were processed

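Biotin-labelled RNA of dental papillae at 3 stages was hybridised to 1 oligonucleotide array each. The deposited file holds ratios of 45101 probe sets, 64 of them controls. Per the submitters' processing notes GCOS was used, with no version; how arrays were scaled and centred is not stated. In 90.4% of probe sets the middle deposited ratio is 1; the others are multiples of 1 step per array. A level was recovered as the smallest number of steps that makes all 3 signals whole within a relative 3e-07. It may be understated by a whole factor, but ratios between stages are kept. Tested on simulated data, recovery was exact in 82.4% of 45037 probe sets, understated in 17.6% and never overstated in that test.

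Array medians were 82.0, 81.8 and 82.3 at E16, E18 and P3. Genes were named from the platform annotation: 34958 probe sets have 1 symbol, 932 several, and 9160 others have no entry. Each gene is represented by the probe set with the highest mean level, and every probe set of each member is printed. A gene was compared when at least 1 of the 2 arrays reached the floor. With 1 array per stage there is no depth and no interval, and the number of arrays limits the precision. Other genes are named where they passed 2-fold on a list (up to 6 a list) or were the brightest or best known there. Alas1, Gata1, Sox6, Epb42, Rhag, Pf4, Itgb3 and the adult globins were named after their values were seen. Alternatives were other floors, scalings, probe set rules and fold thresholds. The members and lists were chosen with earlier results of these data known. Python 3.11.15 with numpy 2.4.6 and pandas 2.3.3 was used.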

Additional observations from a re-analysis of the deposited data

How the results depend on the processing

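All values are differences between single arrays. Of 75 recomputed counts and medians over the members, 62 kept their value within 1.5 times, or within the spread between probe sets (1 SD), and 13 did not. These include the counts of members higher, which were 0 at every setting except P3 against E18 without a floor and so say little on stability. With probe sets named _s_at or _x_at left out, Hbb-y was not measured, and 1 member was lower at P3 against E16, 1 at E18 against E16 and 0 at P3 against E18, each time Alas2 where there was 1. Of all genes, 15.8%, 8.72% and 10.8% were lower at this setting, in the same order of comparisons. The median of the members at P3 against E16 was then -0.73, and Bpgm turned to 0.024 at P3 against E18. With the median over a gene's probe sets, 2 members were lower at P3 against E16 and 0 at P3 against E18. Without a floor, 3 were lower and 1 higher at P3 against E18 (of all genes 14.1% and 9.90%). At P3 against E16, 5 were lower without a floor, Hba-x included (of all genes 16.4%). The median at E18 against E16 was then -0.41, with 7 genes measured. With the floor halved, 2 were lower at P3 against E18 (of all genes 11.7%) and the median at P3 against E16 was -1.49. With it doubled, the median at P3 against E18 was -1.27, from 1 gene. At a 3-fold threshold, 0 were lower at P3 against E18. Quantile normalization moved the median of all genes at P3 against E16 to 0.02, against -0.17 as deposited. It moved the share higher among changed genes to 49.0%, against 29.6% (at P3 against E18 47.6%, against 25.7%). Under it the members lower were 3 at P3 against E16 and 2 at E18 against E16, since Slc4a1 no longer passed 2-fold (-0.99). Of all genes, 10.5% and 7.20% were then lower in these comparisons. With the floor doubled Slc4a1 lost its call as well (-0.05 in both comparisons). Median scaling changed no count of members. Leaving out an array was not possible with 1 per stage. No paired analysis was possible because each stage has 1 array.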

Other observations

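Markers of megakaryocytes and platelets, the other cells that share Gata1 and Nfe2 with red cells, went both ways. Their summed level was 1004.1 at E16, 1093.0 at E18 and 1647.0 at P3. At P3 against E16, 1 of 6 measured was at least 2-fold higher and 1 lower (median 0.38). Of all genes, 6.57% were higher and 15.6% lower there, so counts this small say little about these markers. The platelet chemokine gene Pf4, which macrophages can also express, read 114.7 at E16, 355.1 at E18 and 716.9 at P3, and the integrin gene Itgb3 read 172.5, 4.4 and 47.8.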
